A study of Mus musculus with 21 samples.

Results

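The BCL2 family genes are described here across mouse retinal ganglion cells, the output neurons of the retina, sorted after injury to their axons. The set of 10 genes was chosen by name and role from the 17164 genes of the deposited count table. It holds 5 BH3-only genes (Bbc3, Pmaip1, Bcl2l11, Hrk and Bid), 2 effectors (Bax and Bak1) and 3 protectors (Bcl2, Bcl2l1 and Mcl1). All 10 passed the filter on low counts, as did 16797 genes in all.

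The study asked how injury-induced transcription factors shape the loss of ganglion cells after optic nerve crush, and sequenced RNA from cells that had received a control or a single guide RNA against 1 of 4 factors. All mice were C57BL/6, 6-7 weeks old in the deposited sample sheet, and were sampled at day 3 after crush. Thus the controls, labelled wild type, carried the same injury, and no uninjured library was used here. The groups held 4 control libraries, 5 labelled as ATF3 knockout, 2 as ATF4 knockout, 4 as CEBPG knockout and 5 as CHOP knockout (CHOP is the product of Ddit3). Each library came from 5000 to 10000 sorted cells, released with papain and amplified with the SMART-Seq v4 kit. The labels do not say how many mice were pooled or whether libraries of a group came from separate mice, so the tests speak of the spread among libraries, part of which may be technical.

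Proteins of the BCL2 family decide whether the outer membrane of the mitochondrion stays intact. BH3-only proteins sense damage and either block the protectors or activate the effectors BAX and BAK, which open the membrane and let cytochrome c out to activate caspases. In ganglion cells, death after axon injury depends on Bax, and kinase signalling through DLK and JNK, p53 and the ATF4 and CHOP stress pathway are known routes by which BH3-only genes are switched on.

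Control libraries held 6401446 to 11752828 counted reads, ATF3 libraries 25267560 to 32776378, ATF4 libraries 11929692 to 12404601, CEBPG libraries 9000250 to 29810987 and CHOP libraries 14272784 to 31543917. In the sample sheet the controls were all male and all of batch 2, and the ATF3, CEBPG and CHOP libraries were all female and of batch 3. The ATF4 libraries were of batch 1, replicate 1 entered as female and replicate 3 as male; replicate 1 had 3 reads of Xist, the RNA of the silenced X chromosome, against 4138 to 12626 in the female groups, which goes against its entry. CEBPG replicates 6 and 8 stood far from each other on the fourth principal component of all genes (−99.3 and 102, with the other 2 at −10.4 and −6.20). So in every comparison with the control, knockout and batch cannot be told apart, nor can sex in ATF3, CEBPG and CHOP. Every ATF3, ATF4 and CHOP library was deeper than every control, while CEBPG replicate 6 lay within the control range. Only the 3 comparisons among ATF3, CEBPG and CHOP lie within 1 batch and 1 sex. Summed markers of ganglion cells took 0.0555% of the reads in control, 0.0641% in ATF3, 0.0609% in ATF4, 0.0492% in CEBPG and 0.0539% in CHOP, so the libraries carried these genes at a low share, and Pou4f2 was at 0 in CEBPG. Rod markers (12 of 12) took 4.43% of the control reads and between 0.393% and 0.731% in the knockout groups. Markers of Mueller glia took 0.756% in control, 1.27% in ATF3, 1.27% in ATF4, 0.986% in CEBPG and 0.712% in CHOP. Microglia markers took 0.645%, 0.668%, 0.776%, 0.879% and 0.534% in the same order. These lists hold different genes, so their shares do not give cell numbers. The levels of the 10 genes below are those of whole libraries and not of ganglion cells alone. The targeted transcripts did not check the labels, because their levels were not particular to the labelled group. Atf4 fell in all 4 knockout groups, from 301 CPM (counts scaled to library size) in control to 87.9 in ATF3, 154 in ATF4, 130 in CEBPG and 106 in CHOP. Atf3, at 113 CPM in control, fell to 38.3 in ATF3 and 36.9 in CHOP, and stood at 95.3 in ATF4 and 74.5 in CEBPG. Ddit3, at 88.3 CPM in control, fell to 61.9 in ATF3, 66.5 in CEBPG and 65.5 in CHOP, and stood at 114 in ATF4. Cebpg fell from 83.3 CPM in control to 62.2 in ATF3, 53.9 in ATF4 and 55.8 in CHOP. In CEBPG it was at 74.6 CPM (adjusted p = 0.491, edgeR quasi-likelihood), the highest of the knockout groups. A guide RNA makes small changes in DNA and need not lower the transcript. In bulk RNA of sorted cells, fewer cells of a type and less RNA per cell cannot be told apart.

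Promoter sequences are shown for 4 members, because the factors targeted bind short DNA words: 2 members that carried a match and 2 that moved most often and carried none. RefSeq promoters were found for 9 of the 10 genes, 14 start sites in all. The 250 bases before each start were searched on both strands for TGATGNAA (the core of the joint C/EBP and ATF element), TGACGTCA (the cyclic AMP response element), TGANTCA (AP-1) and TTGCNNAA (a C/EBP word). Among 32851 mouse promoters these words occurred in 3.45%, 1.55%, 6.75% and 9.56%. A match is only a match of letters. Capitals mark the match. The windows are 5′ to 3′ on the strand of the gene, in build GRCm38.p6: Hrk at chr5:118169610-118169697 (+), Bid at chr6:120916867-120916954 (−), Bcl2 at chr1:106714291-106714350 (−) and Mcl1 at chr3:95658661-95658720 (+).
Hrk: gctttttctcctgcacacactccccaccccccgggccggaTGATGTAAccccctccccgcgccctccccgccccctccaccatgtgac
Bid: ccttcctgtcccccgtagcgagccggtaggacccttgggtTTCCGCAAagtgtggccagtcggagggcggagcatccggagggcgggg
Bcl2: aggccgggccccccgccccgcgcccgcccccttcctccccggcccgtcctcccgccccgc
Mcl1: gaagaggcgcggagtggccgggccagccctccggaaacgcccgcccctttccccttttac
Hrk held TGATGTAA 114 to 107 bases before its start, and Bid held the C/EBP word on the opposite strand, 90 to 83 bases before its start. None of the 4 words was in the other 12 windows, which says only that these letters are absent there.

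Across 7 comparisons the 10 genes gave 70 tests, and 23 passed an adjusted p of 0.05 (edgeR quasi-likelihood test, Benjamini-Hochberg over 16797 genes). Against the control, 2 members passed in ATF3 (1 higher, 1 lower) where 33.4% of all genes passed, 4 in ATF4 (1 higher, 3 lower) where 31.3% passed, 4 in CEBPG (all higher) where 33.4% passed, and 3 in CHOP (1 higher, 2 lower) where 33.5% passed. Within batch 3, 4 members passed in ATF3 against CEBPG (all lower in ATF3; 20.4% of all genes), 1 in ATF3 against CHOP (lower in ATF3; 2.26%) and 5 in CEBPG against CHOP (all higher in CEBPG; 26.7%). Over all genes, 18.6%, 16.6%, 18.3% and 18.1% were higher and 14.8%, 14.6%, 15% and 15.4% lower in ATF3, ATF4, CEBPG and CHOP against the control. Within batch 3, 10.1% were higher and 10.2% lower in ATF3 against CEBPG, 1.51% and 0.756% in ATF3 against CHOP, and 13.5% and 13.2% in CEBPG against CHOP. Groups did not overlap for 3 members in ATF3 (34.3% of all genes), 4 in ATF4 (44.8%), 4 in CEBPG (26.9%) and 2 in CHOP (28.9%) against the control, and for 4 in ATF3 against CEBPG (22.3%), 1 in ATF3 against CHOP (8.06%) and 4 in CEBPG against CHOP (21.2%). The members' shares lay on both sides of these backgrounds. The members' median log2 fold change was −0.02 in ATF3, 0.20 in ATF4, 0.65 in CEBPG and −0.16 in CHOP, beside 0.06, 0.00, 0.06 and 0.01 over all genes. It was −0.64 for ATF3 against CEBPG, −0.05 for ATF3 against CHOP and 0.83 for CEBPG against CHOP, beside 0.00, −0.01 and −0.03. Bbc3 and Bak1 passed in none of the 7. The 4 comparisons with the control share its 4 libraries, so they are given side by side and not counted as separate evidence.

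**Figure D1:**
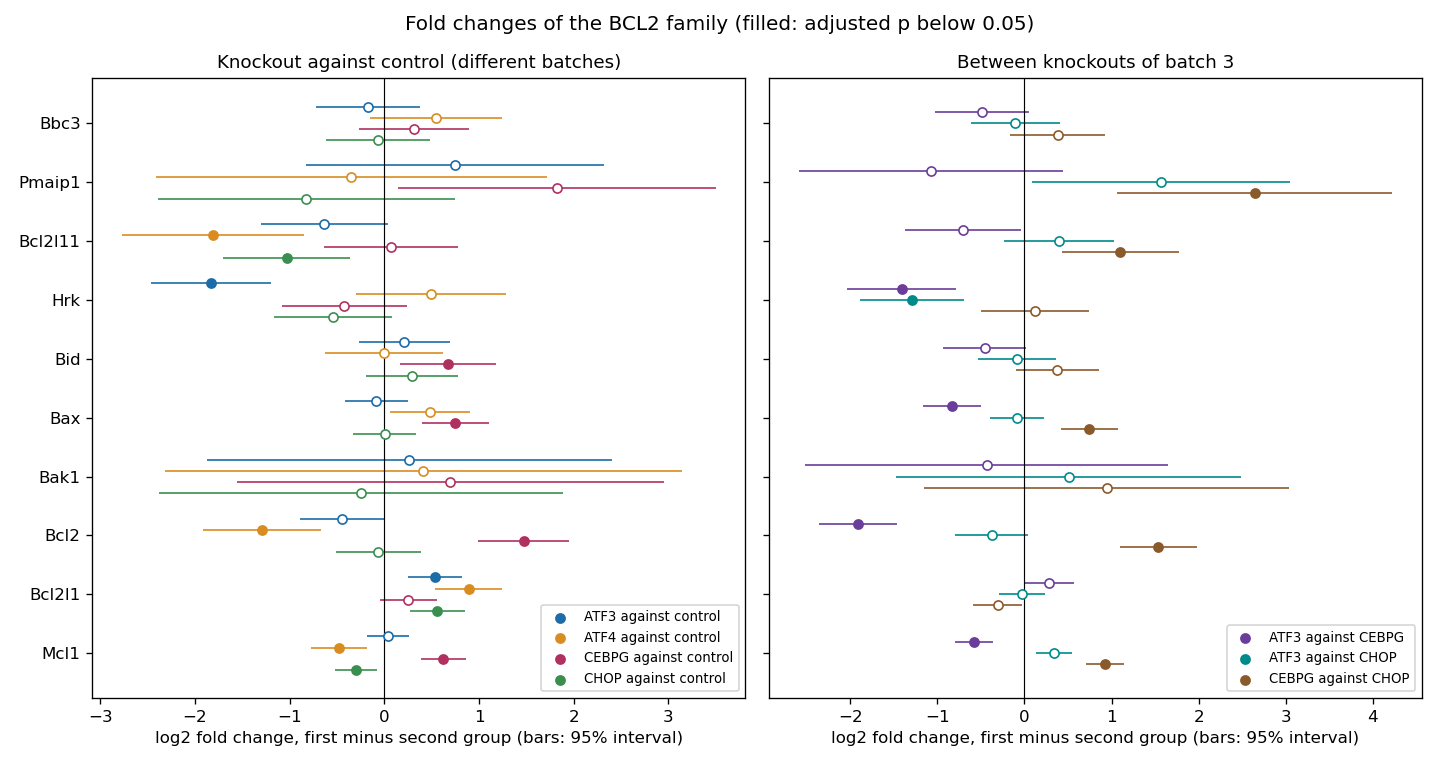
Log2 fold change of each of the 10 genes in the 7 comparisons (x axis, log2 units; bars are 95% confidence intervals; filled points passed an adjusted p of 0.05). Bcl2 in CEBPG against control stands at 1.47 and Hrk in ATF3 against control at −1.83, and the intervals of Bak1 and Pmaip1 are the widest.

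Among the BH3-only genes, Hrk changed most in the ATF3 libraries. Hrk encodes Harakiri, a BH3-only protein made mainly in neurons that binds BCL2 and BCL-XL. The gene lies at chr5:118164648-118189478 (+) in mm10. Hrk stood at 19.4, 25.9, 14.9 and 13.4 CPM in the controls (replicates 4, 5, 7 and 8) and at 5.26, 3.53, 4.42, 6.18 and 6.37 CPM in ATF3 (replicates 5 to 9). It stood at 28.5 and 23.3 CPM in ATF4, at 12.8, 14.7, 19.5 and 7.79 CPM in CEBPG (replicates 6, 8, 9 and 10), and at 7.98, 15.5, 8.35, 17.5 and 13.6 CPM in CHOP (replicates 1 to 5). Every ATF3 library was below every library of the other 4 groups. Hrk fell 3.56-fold in ATF3 against the control (log2 fold change −1.83, SE 0.31, adjusted p = 5.11e-05, edgeR). It was also lower in ATF3 than in CEBPG (log2 fold change −1.41, SE 0.30, adjusted p = 0.00158) and than in CHOP (−1.29, SE 0.29, adjusted p = 0.0147, edgeR). The difference from CHOP did not pass without ATF3 replicate 6 (−1.18, adjusted p = 0.0533) or without CHOP replicate 4 (−1.14, adjusted p = 0.0578). In ATF4, CEBPG and CHOP against the control Hrk did not pass, at 0.50 (SE 0.38), −0.42 (SE 0.32) and −0.54 (SE 0.30) on the log2 scale, and the groups overlapped.

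Markers of ganglion cells moved beside Hrk in ATF3. Of the 12 in the list, 6 fell against the control (Nrn1, Pou4f1, Sncg, Rbpms, Slc17a6 and Nefh) and 3 rose (Nefm, Thy1 and Nefl), with a median log2 fold change of −1.09, and all 12 were detected in control and ATF3. Their summed share ranged from 0.0492% to 0.0665% of reads in control and from 0.0628% to 0.0650% in ATF3, most of it from Nefl. Rbpms, an RNA-binding protein used to mark ganglion cells, was at 22.9 CPM in control and 8.99 CPM in ATF3 (−1.34, SE 0.29). With Ddx19a and Ecel1, it was among the 3 genes that followed Hrk most closely over the 20 libraries (Pearson r = 0.81, log2 CPM). Group means were not removed, so this correlation includes the differences between groups, and libraries of a group share a batch. Against CHOP, 1 of the 12 markers passed, higher in ATF3. The part of these markers in the Hrk difference was not tested.

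Bcl2l11, which encodes BIM, a BH3-only protein able to bind all the main protectors, was lowest in the ATF4 libraries. It lies at chr2:128126038-128162547 (+). Its level was 34.4, 36.4, 30.7 and 30.8 CPM in the controls and 6.77 and 12.1 CPM in ATF4 replicates 1 and 3. In CHOP it was 13.1, 23.3, 3.79, 17.4 and 23.2 CPM. All libraries of these groups were below all controls, and CHOP replicate 3 was the lowest of the 20. Bcl2l11 fell 3.50-fold in ATF4 (log2 fold change −1.81, SE 0.46, adjusted p = 0.00436) and 2.04-fold in CHOP (−1.03, SE 0.32, adjusted p = 0.0162; edgeR). Without ATF4 replicate 1, whose sex entry did not match its reads, the ATF4 difference was −1.45, from 1 library with no spread of its own. In ATF3 the 5 values, 19.5, 18.4, 21.2, 25.2 and 22.3 CPM, were also below every control, but the difference did not pass (−0.63, SE 0.32, adjusted p = 0.143, edgeR). CEBPG values of 36.8, 39.9, 22.6 and 39.7 CPM overlapped the controls (0.07, SE 0.34). Within batch 3, Bcl2l11 was 2.15-fold higher in CEBPG than in CHOP (1.10, SE 0.32, adjusted p = 0.0134), with CEBPG replicate 9 inside the CHOP range. That difference did not pass in a fit of these 2 groups alone (1.15, adjusted p = 0.0601) or without both CEBPG replicates 6 and 8, an alternative chosen after seeing the data (0.98, adjusted p = 0.0860).

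Pmaip1 and Bbc3 encode NOXA and PUMA, BH3-only proteins that p53 and the stress pathway of ATF4 and CHOP can switch on. Pmaip1 was low and uneven: 4.77, 4.21, 3.49 and 2.59 CPM in the controls, 8.31, 5.85, 7.46 and 31.4 CPM in CEBPG, and 3.50, 2.01, 4.59, 0.549 and 0 CPM in CHOP. Of the CHOP libraries, replicate 5 had no Pmaip1 read and replicate 4 had 11. CEBPG replicate 10 alone reached 31.4 CPM, over 3 times any other CEBPG library. Pmaip1 was 6.24-fold higher in CEBPG than in CHOP (log2 fold change 2.64, SE 0.77, adjusted p = 0.0124), and without CEBPG replicate 10 the difference was 1.76 (adjusted p = 0.107, edgeR). It did not pass in a fit of these 2 groups alone either (2.66, adjusted p = 0.0604). Against the control, no Pmaip1 difference passed: 0.75 (SE 0.76) in ATF3, −0.35 (95% confidence interval −2.42 to 1.72) in ATF4, 1.82 (SE 0.81) in CEBPG and −0.82 (SE 0.76) in CHOP. All 4 CEBPG libraries were above all controls, yet the test gave an adjusted p of 0.0891. The log2 difference became 1.78 (adjusted p = 0.0367, edgeR) in a fit of these 2 groups alone. Without both CEBPG replicates 6 and 8, an alternative chosen after seeing the data, it became 2.40 (adjusted p = 0.0449). Both fits kept CEBPG replicate 10, and with any single library left out the difference did not pass.

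Bbc3 did not pass in any comparison. It ranged from 9.82 to 20.7 CPM in the controls, 11.99 to 13.7 in ATF3, 18.7 to 23.9 in ATF4, 11.1 to 24.3 in CEBPG and 7.63 to 16.6 in CHOP. Its group means, from 12.9 CPM in ATF3 to 21.3 CPM in ATF4, were within 1 log2 unit of each other, and neighbouring groups overlapped. For CHOP against the control the 95% confidence interval of its log2 fold change was −0.62 to 0.48, and for ATF3 −0.72 to 0.38. For ATF4, with 2 libraries, it was wider, −0.15 to 1.25. Of the p53 genes in the list of upstream regulators, Trp53 itself rose in CEBPG (log2 fold change 1.02, SE 0.22), and Mdm2, whose product degrades p53, fell in ATF4 (−0.91, SE 0.17; edgeR, adjusted p = 0.000661 and 0.000210).

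Bid, whose product is cut by caspase-8 to reach the mitochondrion, rose in CEBPG. Values were 17.7, 13.9, 23.3 and 12.9 CPM in the controls and 20.1, 25.3, 22.1 and 40.6 CPM in CEBPG. The groups overlapped, with CEBPG replicate 10 the highest. Bid was 1.59-fold higher in CEBPG (log2 fold change 0.67, SE 0.25, adjusted p = 0.0388, edgeR), and without CEBPG replicate 10 it was 0.40 higher (adjusted p = 0.208). The call was also lost without CEBPG replicate 8 (0.67, adjusted p = 0.0567), control replicate 4 (0.69, adjusted p = 0.0585), control replicate 5 (0.59, adjusted p = 0.104) or control replicate 8 (0.56, adjusted p = 0.121), and in a fit of the 2 groups alone (0.63, adjusted p = 0.161). ATF3, ATF4 and CHOP gave 0.21 (SE 0.23), 0.00 (SE 0.30) and 0.29 (SE 0.23). The gene, at chr6:120891930-120916853 (−), overlaps Bcl2l13 on the other strand, and no source used here says whether the counting used strand, so their reads may be mixed. Bcl2l13 moved the other way, falling in CEBPG from 62.5 to 29.2 CPM.

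**Figure D2:**
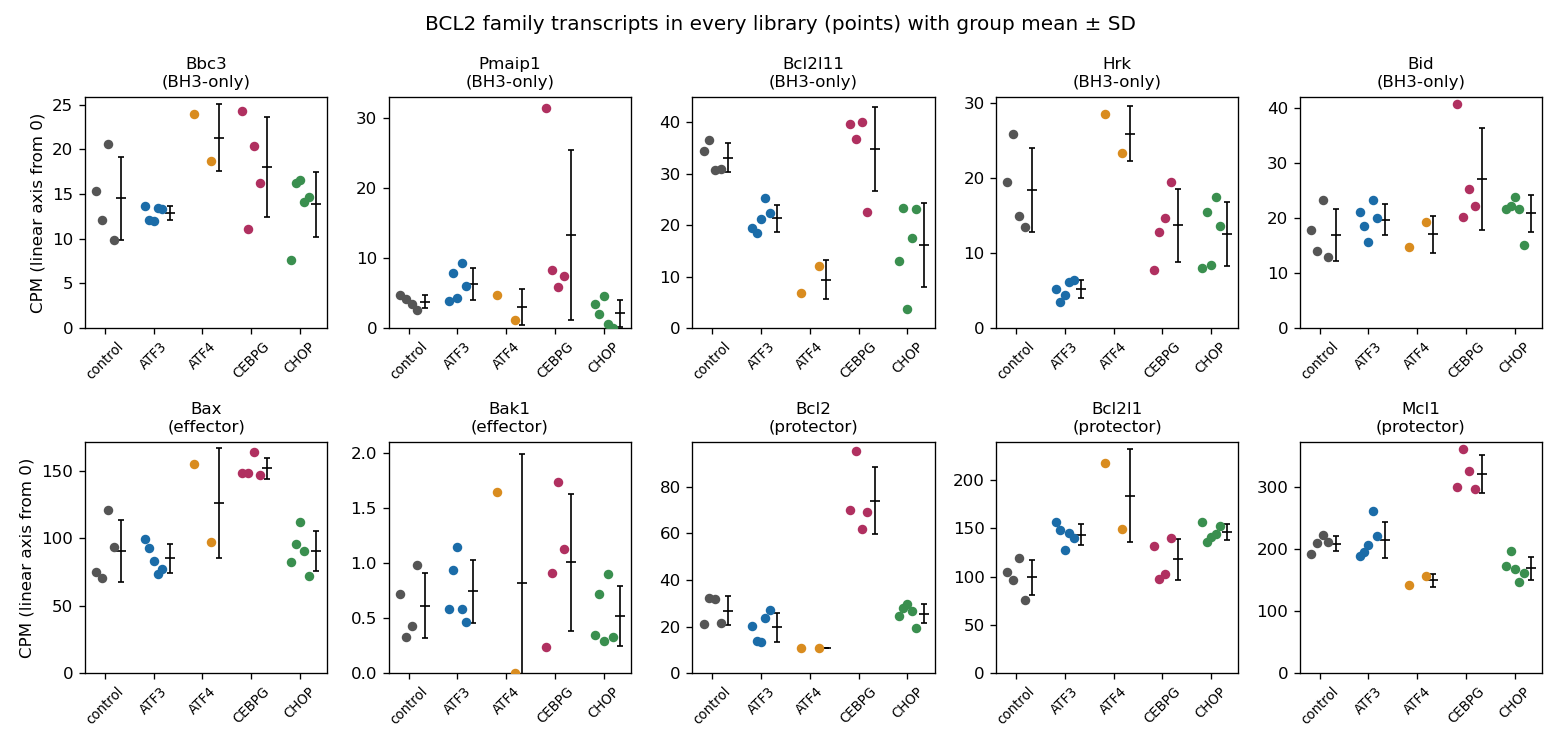
CPM of each of the 10 genes in every library (y axis, CPM; x axis, group; 1 point per library; the black marks are the group mean ± SD). All 5 ATF3 libraries lie at 3.53 to 6.37 CPM for Hrk, and all 4 CEBPG libraries lie at 61.9 to 95.2 CPM for Bcl2, apart from every other group.

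Of the effectors, Bax had many reads and Bak1 few. Bax lies at chr7:45461697-45466898 (−) and overlaps the gene model Gm45808 on the same strand. It stood at 75.2, 70.8, 121 and 93.7 CPM in the controls and at 148, 164, 146 and 149 CPM in CEBPG. No CEBPG library reached down to the highest control. Bax rose 1.68-fold in CEBPG (log2 fold change 0.75, SE 0.17, adjusted p = 0.00135), was 1.78-fold lower in ATF3 than in CEBPG (−0.83, SE 0.16, adjusted p = 0.000534) and was 1.67-fold higher in CEBPG than in CHOP (0.74, SE 0.16, adjusted p = 0.00118; edgeR). ATF3 values were 99.2, 92.7, 83.0, 73.6 and 77.4 CPM and CHOP values 82.4, 95.6, 112, 90.9 and 71.9 CPM, both within the control range. For CHOP against the control the log2 difference was 0.00 with a 95% confidence interval of −0.33 to 0.34, and for ATF3 −0.09 with −0.42 to 0.25. ATF4 replicate 1 was at 155 CPM and replicate 3 at 97.5 CPM. That difference did not pass (0.48, SE 0.20, adjusted p = 0.0785, edgeR), although it did without control replicate 7 (0.66, adjusted p = 0.0114). Without ATF4 replicate 3 it was 0.78, from 1 library with no spread of its own.

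Bak1, the second effector, overlaps the protein-coding gene Ggnbp1 on the other strand. Whether the counting used strand is not known, so reads from the overlap may be mixed or left out. Bak1 had between 0 and 34 reads per library and group means of 0.520 to 1.006 CPM. ATF4 replicate 3 had none. Its standard errors were 0.96 to 1.32 log2 units in the 7 comparisons, so a difference of several fold in Bak1 was not detectable at this depth.

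Each protector followed its own pattern: Mcl1 passed in 5 of the 7 comparisons, Bcl2 in 4 and Bcl2l1 in 3. BCL2, BCL-XL (from Bcl2l1) and MCL1 all bind BH3-only proteins and effectors, and MCL1 is a short-lived protein.

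Bcl2 was high in CEBPG alone. The gene lies at chr1:106538178-106714274 (−) and overlaps the antisense transcript D630008O14Rik. Bcl2 stood at 95.2, 61.9, 69.2 and 70.1 CPM in CEBPG and at 21.2, 32.4, 31.8 and 21.7 CPM in the controls. In ATF3 it was 20.3, 13.7, 13.3, 23.8 and 27.2 CPM. It was 24.4, 27.9, 29.6, 26.7 and 19.3 CPM in CHOP and 10.9 CPM in both ATF4 libraries. The lowest CEBPG library lay above the highest library of any other group, and both ATF4 libraries lay below all others. Bcl2 rose 2.77-fold in CEBPG (log2 fold change 1.47, SE 0.23, adjusted p = 2.38e-05, edgeR). It fell 2.45-fold in ATF4 (−1.29, SE 0.30, adjusted p = 0.00202, edgeR). Without ATF4 replicate 1, Bcl2 in ATF4 stood at −1.30, from 1 library with no spread of its own. Within batch 3 it was 3.76-fold lower in ATF3 than in CEBPG (−1.91, SE 0.22, adjusted p = 1.11e-06) and 2.90-fold higher in CEBPG than in CHOP (1.53, SE 0.21, adjusted p = 1.09e-05). For CHOP against the control it was −0.06 (95% confidence interval −0.51 to 0.38). For ATF3 it was −0.44 (SE 0.22, adjusted p = 0.124), and it passed without ATF3 replicate 9 (−0.59, adjusted p = 0.0471).

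Mcl1, at chr3:95658788-95663176 (+), was the steadiest member within groups, with an SD of 0.15 on the log2 scale. It stood at 193, 209, 222 and 211 CPM in the controls, 362, 327, 297 and 300 CPM in CEBPG, and 142 and 157 CPM in ATF4. ATF3 values were 190, 195, 206, 261 and 222 CPM and CHOP values 173, 198, 168, 146 and 162 CPM. CEBPG lay above every other group and both ATF4 libraries lay below every control. Mcl1 rose 1.54-fold in CEBPG (log2 fold change 0.62, SE 0.11, adjusted p = 0.000136) and was 1.497-fold lower in ATF3 than in CEBPG (−0.58, SE 0.11, adjusted p = 0.000347). It was 1.90-fold higher in CEBPG than in CHOP (0.92, SE 0.11, adjusted p = 9.89e-07; edgeR). In ATF4 it fell 1.39-fold (−0.48, SE 0.14, adjusted p = 0.0120, edgeR), a call lost in a fit of the 2 groups alone (−0.51, adjusted p = 0.0512). Without ATF4 replicate 1 it stood at −0.41, from 1 library with no spread of its own.

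In CHOP, Mcl1 fell 1.23-fold against the control (−0.30, SE 0.11, adjusted p = 0.0328, edgeR), with CHOP replicate 2 inside the control range. That call was lost without any 1 of CHOP replicates 4 and 5 and control replicates 5, 7 and 8 (adjusted p = 0.0895, 0.0661, 0.0591, 0.0808 and 0.0654), without a scaling factor (−0.27, adjusted p = 0.0756) and in a fit of the 2 groups alone (adjusted p = 0.0531). ATF3 stood 0.34 above CHOP on the log2 scale (adjusted p = 0.0820), and this passed without CHOP replicate 2 (0.40, adjusted p = 0.0436), in a fit of the 2 groups alone (0.36, adjusted p = 0.0284) and in DESeq2 (adjusted p = 0.0363).

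Markers of immune cells were also highest in CEBPG, where Bcl2 and Mcl1 were highest. Of 14 markers of T and natural killer cells, 13 were in the table and all 13 rose in CEBPG, where they took 0.187% to 0.263% of reads; in the controls they took 0.000834% to 0.00178%, with Cd163l1 at 0. Their share was 0.0400% to 0.0478% in ATF3, 0.0341% to 0.0489% in CHOP, and 0.00210% and 0.00736% in ATF4, with Cd163l1 at 0 in ATF4. Of 10 markers of monocytes and neutrophils, 8 rose in CEBPG, with shares of 0.235% to 0.297% against 0.0696% to 0.113% in the controls, where Retnlg was at 0. Microglia markers took 0.810% to 0.935% in CEBPG and 0.512% to 0.827% in the controls, and 6 of 12 rose. Within CEBPG, replicate 6 had the highest Bcl2 and Mcl1 and the lowest lymphocyte share, and replicate 10, with the highest lymphocyte share, had 70.1 CPM of Bcl2. In CEBPG the monocyte and neutrophil share was 0.297% in replicate 6, 0.280% in replicate 10, 0.246% in replicate 9 and 0.235% in replicate 8. Bcl2 had the same order, with replicates 10 and 9 close (70.1 and 69.2 CPM), but Mcl1 did not. Replicate 8 was above replicates 9 and 10 in Mcl1 (327 against 297 and 300 CPM). The mean share was 0.113% in ATF3 and 0.0525% in CHOP, with mean Bcl2 at 19.7 and 25.6 CPM. In ATF3 and CHOP, where all 13 lymphocyte markers also rose, Bcl2 did not pass. Nlrc5, Arhgef1 and Cish followed Bcl2 most closely over the 20 libraries (Pearson r = 0.93, 0.92 and 0.91), and Ncf1, Pik3r5 and Tgm2 followed Mcl1 (0.91, 0.91 and 0.90). Group means were not removed, so these correlations include the differences between groups. The part of immune cells in the Bcl2, Mcl1 and Bax differences was not tested.

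**Figure D3:**
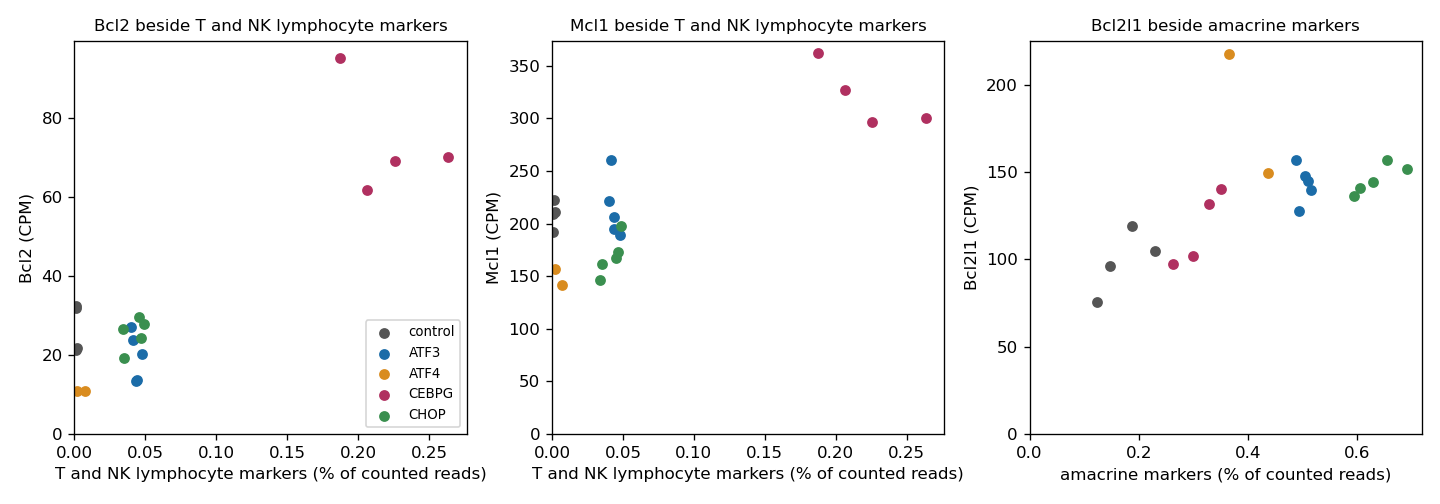
Levels of Bcl2, Mcl1 and Bcl2l1 (y axes, CPM) against the summed share of lymphocyte or amacrine markers (x axes, % of counted reads), 1 point per library, coloured by group. The 4 CEBPG libraries stand apart on both axes of the Bcl2 and Mcl1 panels, and in the Bcl2l1 panel the 4 controls have the lowest amacrine shares, 0.124% to 0.229%.

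Bcl2l1 was lower in the controls than in 3 of the knockout groups. The gene lies at chr2:152780668-152831728 (−). The controls stood at 105, 96.2, 119 and 75.6 CPM, the ATF3 libraries at 157, 148, 128, 145 and 140 CPM, and the CHOP libraries at 157, 136, 141, 144 and 152 CPM. ATF4 replicates 1 and 3 were at 218 and 150 CPM, and CEBPG values were 97.5, 102, 141 and 132 CPM. No library of ATF3, ATF4 or CHOP overlapped the controls, while CEBPG did. Bcl2l1 rose 1.45-fold in ATF3 (log2 fold change 0.53, SE 0.14, adjusted p = 0.00416), 1.85-fold in ATF4 (0.89, SE 0.17, adjusted p = 0.000343) and 1.47-fold in CHOP (0.56, SE 0.14, adjusted p = 0.00283; edgeR). Without ATF4 replicate 1 the ATF4 difference was 0.59, from 1 library with no spread of its own. CEBPG was 0.25 above the control (SE 0.15, adjusted p = 0.190, edgeR). This became 0.49 (adjusted p = 0.0190) without both CEBPG replicates 6 and 8, an alternative chosen after seeing the data. Within batch 3 no Bcl2l1 difference passed: ATF3 against CHOP was −0.03 (95% confidence interval −0.29 to 0.24), and CEBPG against CHOP −0.31 (SE 0.14, adjusted p = 0.104), which passed without CEBPG replicate 9 (−0.40, adjusted p = 0.0459).

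Markers of amacrine cells, the inhibitory interneurons next to the ganglion cells, took a smaller share of reads in the controls than in any knockout group. Of 10 markers, 8 rose in ATF3, 7 in ATF4, 7 in CEBPG (with 1 fall and Slc18a3 at 0) and 8 in CHOP. Their share was 0.124% to 0.229% in the controls, 0.487% to 0.516% in ATF3, 0.365% and 0.436% in ATF4, 0.263% to 0.351% in CEBPG and 0.594% to 0.690% in CHOP. The genes whose level followed Bcl2l1 most closely over the 20 libraries were Six3 (Pearson r = 0.94), Tfap2b (0.93) and Resp18 (0.92), of which Six3 and Tfap2b encode transcription factors of amacrine cells. The libraries behind these correlations share batch and sex with their groups, and group means were not removed. Over all knockout groups the orders differed: mean Bcl2l1 was highest in ATF4 (184 CPM) and the mean amacrine share in CHOP (0.635%). Within batch 3 they were the same: mean Bcl2l1 was 118 CPM in CEBPG, 144 in ATF3 and 146 in CHOP. The mean amacrine shares there were 0.311%, 0.502% and 0.635%. Among libraries of a group, the orders matched in CEBPG and differed in the other groups. Rod markers also set the controls apart, at 3.57% to 5.38% of reads against 0.318% to 0.857% over the knockout libraries. The part of amacrine or rod RNA in the Bcl2l1 difference was not tested.

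Levels of the 10 genes relative to each other were compared per kilobase of merged exons. Mcl1 and Bax led in every group: as shares of the summed reads per kilobase of the 10, Mcl1 took 37.6% in control, 37.3% in ATF3, 24.0% in ATF4, 37.3% in CEBPG and 31.1% in CHOP, and Bax 34.7%, 32.2%, 42.2%, 38.2% and 35.9%. Bcl2l1 came next, at 13.2%, 18.6%, 21.3%, 10.2% and 20.2%. Bcl2 took 1.79%, 1.27%, 0.648%, 3.21% and 1.75%, so even in CEBPG, where Bcl2 was highest, its level per kilobase was under that of Bcl2l1. By group mean, Bbc3, at 3.36% to 5.37%, was the leading BH3-only gene per kilobase in control, ATF3, ATF4, CEBPG and CHOP. It did not lead in every library: in CHOP the lowest Bbc3 share was 2.33% and the lowest Bid share 2.91%. By mean CPM, with no division by length, another BH3-only gene was above Bbc3 in every group. Merged exons need not be the transcript expressed, so these orders depend on the lengths used.

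**Figure D4:**
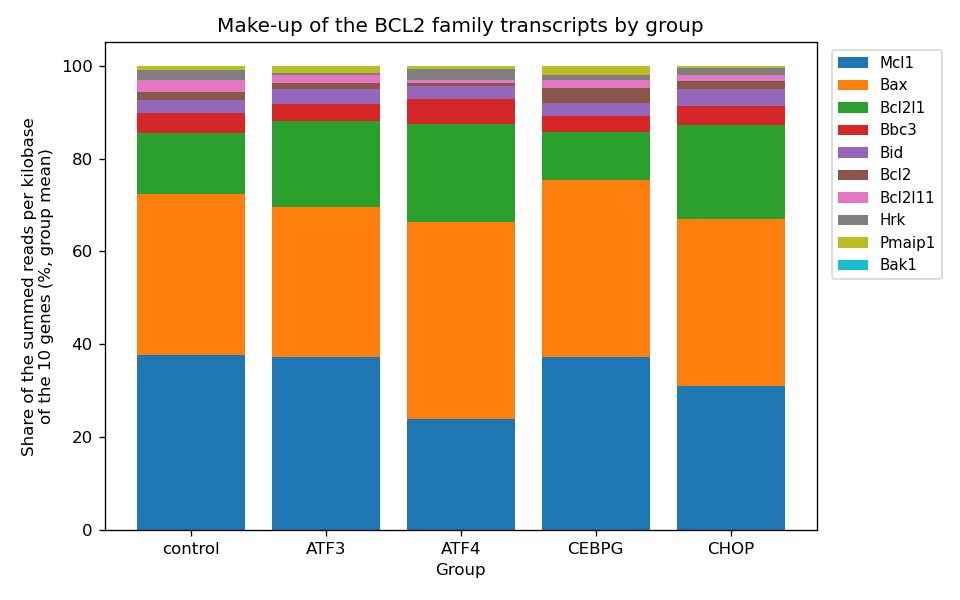
Share of each gene in the summed reads per kilobase of the 10 genes (y axis, %, group mean) in the 5 groups (x axis). Mcl1 and Bax fill most of every bar, and the Mcl1 share is smallest in ATF4 at 24.0%.

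Ratios of reads of effector to protector, which compare groups and not genes, split the protectors. The ratio of Bax to Bcl2 reads was 3.46 ± 0.911 (SD, n = 4) in control, 4.76 ± 1.77 (n = 5) in ATF3, 11.6 ± 3.67 (n = 2) in ATF4, 2.11 ± 0.444 (n = 4) in CEBPG and 3.55 ± 0.197 (n = 5) in CHOP. The ratio of Bax to Bcl2l1 reads ran in another order: 0.927 ± 0.250 in control, 0.594 ± 0.0608 in ATF3, 0.681 ± 0.0413 in ATF4, 1.32 ± 0.279 in CEBPG and 0.625 ± 0.130 in CHOP. Thus CEBPG had the lowest mean ratio of Bax to Bcl2 and the highest of Bax to Bcl2l1. Between the protectors, reads of Bcl2l1 to Bcl2 stood at 1.02 to 2.03 in CEBPG, 2.97 to 4.94 in control, 4.77 to 7.89 in CHOP, 5.15 to 10.8 in ATF3, and 13.8 and 19.9 in ATF4. CEBPG and ATF4 did not overlap any other group in this ratio, while ATF3 overlapped CHOP and CHOP overlapped the control. These ratios carry no test.

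**Figure D5:**
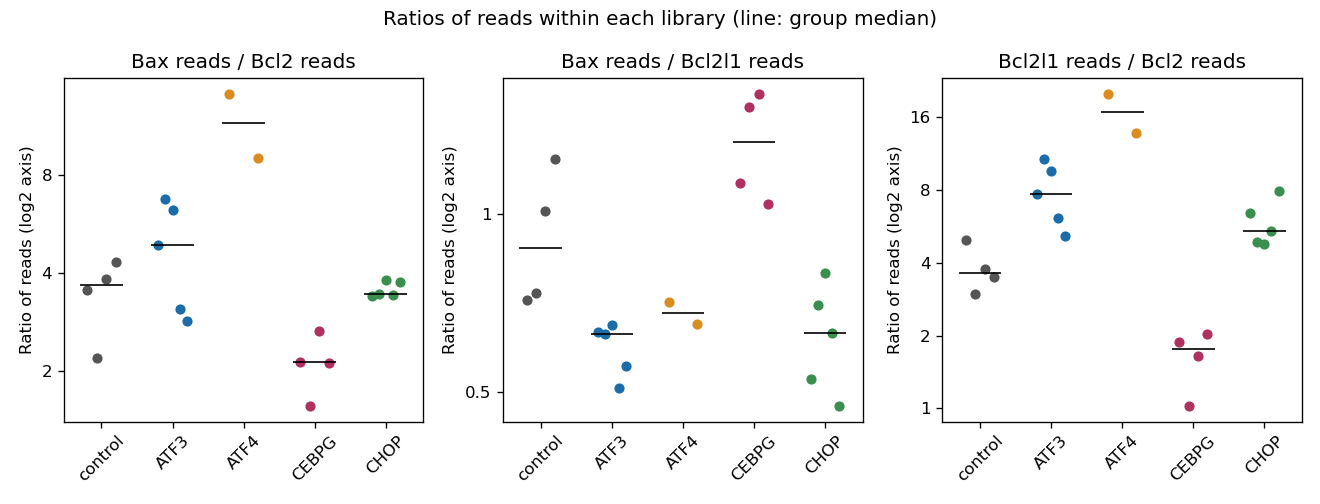
Ratios of reads between members (y axes, log2 scale) in each library, by group (x axis); lines are group medians. ATF4 lies highest for Bax to Bcl2 (8.97 and 14.2) and CEBPG lowest (1.56 to 2.64).

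The other BCL2 family genes (15 tested) included the mitophagy receptors Bnip3 and Bnip3l, which promote removal of mitochondria. Bnip3 rose in all 4 knockout groups against the shared control, from 389 CPM to 571 in ATF3, 586 in ATF4, 513 in CEBPG and 588 in CHOP. Bnip3l rose in all 4 as well, from 184 to 261, 304, 250 and 266 CPM. Bcl2l13, another mitophagy receptor, fell from 62.5 CPM to 40.6, 36.2, 29.2 and 40.2. In all, 3 rose and 2 fell in ATF3, 4 rose and 2 fell in ATF4, 5 rose and 2 fell in CEBPG, and 2 rose and 1 fell in CHOP. Beside these counts, 33.4%, 31.3%, 33.4% and 33.5% of all genes passed. Bad, a BH3-only gene, rose in ATF4 from 42.6 to 70.4 CPM (log2 fold change 0.72, SE 0.20, adjusted p = 0.00793, edgeR). The falls in this list include 2 genes near the detection limit, named here by level only: Bcl2l10 at 1.07 CPM in control and 0 in all CEBPG libraries, and Bik at 0.868 CPM in control and 0 in both ATF4 libraries.

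The Bcl2a1 genes, protectors of blood cells, were highest in CEBPG. Bcl2a1b was at 117 CPM in CEBPG, 29.5 in control, 37.7 in ATF3 and 31.8 in CHOP, and Bcl2a1d at 38.7, 5.08, 10.7 and 7.69 CPM. Their log2 fold changes in CEBPG against control were 1.98 (SE 0.26) and 2.94 (SE 0.36). Within batch 3, the 3 measured copies were the only genes of this list that passed in ATF3 against CEBPG (20.4% of all genes). In CEBPG against CHOP (26.7% of all genes) they rose together with Bik. The copies are nearly identical, so how reads were split between them is uncertain.

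Genes of the apoptosome and the caspases (16 tested) act after the mitochondrial membrane opens. In ATF3 1 rose and 4 fell, in ATF4 1 rose and 2 fell, in CEBPG 5 rose and 2 fell, and in CHOP 3 fell. Beside these counts, 33.4%, 31.3%, 33.4% and 33.5% of all genes passed. Casp8, the initiator caspase of death receptors, rose in CEBPG from 20.6 to 57.3 CPM (log2 fold change 1.48, SE 0.20, adjusted p = 4.21e-06, edgeR). Cycs, which encodes cytochrome c, rose in ATF4 from 74.0 to 117 CPM, and Casp2 fell there from 31.2 to 13.9 CPM. Within batch 3, 5 of the 16 were higher in CEBPG than in CHOP, where 13.5% of all genes were higher. Of the 16, 1 (Casp8) was lower in ATF3 than in CEBPG, where 10.2% of all genes were lower.

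Caspase inhibitors (6 tested) were led by Xiap, which blocks caspases directly. Xiap fell from 74.7 CPM to 37.2 in ATF3, 33.6 in CEBPG and 47.3 in CHOP. Birc3, an inhibitor in the pathway of tumour necrosis factor, rose in CEBPG from 18.6 to 55.7 CPM (1.58, SE 0.28, adjusted p = 9.43e-05, edgeR) and fell in CHOP to 11.6 CPM. Cflar, which restrains caspase-8, rose in CEBPG from 33.4 to 58.3 CPM. In all, 1 fell in ATF3, 1 fell in ATF4, 2 rose and 1 fell in CEBPG, and 3 fell in CHOP. Beside these counts, 33.4%, 31.3%, 33.4% and 33.5% of all genes passed.

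Upstream regulators (18 tested) gave 2 higher and 3 lower in ATF3, 3 and 4 in ATF4, 4 and 3 in CEBPG, and 4 and 1 in CHOP. Beside these counts, 33.4%, 31.3%, 33.4% and 33.5% of all genes passed. Trib3, a target of ATF4 and CHOP, fell most, from 35.0 CPM to 3.96 in ATF3, 6.58 in ATF4, 4.59 in CEBPG and 2.88 in CHOP. Mapk10, the neuronal JNK kinase, rose in all 4, from 70.1 CPM to 162, 128, 108 and 182. Jun, the transcription factor that JNK activates, fell in ATF3 from 783 to 444 CPM (−0.82, SE 0.22, adjusted p = 0.00575) and was lower in ATF3 than in CEBPG (−0.73, SE 0.22, adjusted p = 0.0203; edgeR). Fbxw7, which marks MCL1 and JUN for degradation, rose in all 4, from 71.7 CPM to 207 in ATF3, 118 in ATF4, 110 in CEBPG and 188 in CHOP. Huwe1, a ubiquitin ligase for MCL1, rose in ATF4, CEBPG and CHOP. Map3k12, which encodes DLK, fell in CEBPG from 150 to 112 CPM.

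In the authors' deposited table of knockout effects, for which no source used here gives the model, the controls or the covariates, 2 of the 10 members had a false discovery rate below 0.05. Both were in CEBPG: Bcl2 with a log fold change of 1.78 (FDR 0.000235) and Bax with 0.73 (FDR 0.000574), in a column where 22.1% of 17100 genes passed. In the authors' deposited table none of the 10 passed for ATF3, ATF4 or CHOP, where 7.99%, 5.77% and 7.30% of genes passed. The sign was the same as here for 4 of the 10 in ATF3, 7 in ATF4, 9 in CEBPG and 7 in CHOP. Hrk in ATF3 was −0.80 in the authors' deposited table (FDR 0.691) and Mcl1 in CEBPG 0.07 (FDR 0.818), so both of these calls are absent from the authors' deposited table.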

How the data were processed

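RNA of 21 libraries of mouse retinal ganglion cells was sequenced by the authors, and 20 libraries in 5 labelled groups were used. The deposited table holds raw counts per gene; STAR, Picard, HTSeq, edgeR and build mm10 are named in the submitters' processing notes, without versions, and no source used here gives the strand setting or the annotation. The authors' deposited table of comparisons gives log fold changes, taken as log2 since edgeR is named, with a p-value and false discovery rate per gene. The deposited sample sheet gives sex, batch, age and the fraction of duplicate read pairs, 48.0% to 57.6% as a percent; its other 37 columns of values were not used. The remaining library, titled as a control but with a CHOP genotype label, entered no comparison.

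Counts were filtered with filterByExpr (minimum count 10), which removed 367 genes, scaled by TMM and tested with edgeR 4.0.16 in R 4.3.3: 1 quasi-likelihood fit of the 5 groups over 20 libraries, 15 residual degrees of freedom, Benjamini-Hochberg over 16797 genes, threshold 0.05. CPM are effective-library CPM; log CPM used a prior count of 2. Scripts were tested on simulated data. Alternatives were RLE scaling, library totals, no filter, DESeq2 1.42.0, fits of 2 groups, a replicate block and leaving out libraries. Replicates differed by more than sampling noise (chi-square per gene 12.9 to 64.6 over 33 pairs). Intervals are 95%.

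The members and gene lists were chosen with earlier results of these data known. Genes named besides the 10 are the targeted genes, up to 3 called genes per list, direction and comparison by adjusted p, the 3 most abundant of each marker list, and the 3 genes of highest Pearson r to each member among 12560 with a mean of at least 5 CPM; Bad's, Cycs's and single markers' values follow the same lists, and other marker genes were named after their values were seen. Single values of some genes of the lists are not reported here. Gene positions come from GENCODE in mm10, promoters from RefSeq in GRCm38.p6.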

Additional observations from a re-analysis of the deposited data

Results flagged for a closer look

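Of 40 combinations of member and group with at least 4 libraries, 4 held 1 library far from the others, where chance would give about 2.0 (about 1 in 20). Pmaip1 in CEBPG replicate 10 was the highest of its group at 31.4 CPM, and the next was at 8.31 CPM. Bax in CEBPG replicate 8 was highest at 164 CPM, with the next at 149 CPM. Bbc3 in CHOP replicate 1 was lowest at 7.63 CPM, and Bid in CHOP replicate 5 was lowest at 14.98 CPM.

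The library with conflicting labels, which is titled as a control and carries a CHOP genotype label, entered no comparison. It was male and of batch 4 in the sample sheet, and 4 members lay above all 4 controls in it: Pmaip1 at 13.9 CPM, Bid at 33.8 CPM, Bcl2l1 at 154 CPM and Mcl1 at 409 CPM. Its Mcl1 was above every one of the 20 labelled libraries.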

How the results depend on the processing

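Of the 23 calls, 9 held in every setting run: Hrk and Bcl2l1 in ATF3 against control, Bax, Bcl2 and Mcl1 in CEBPG against control, and Hrk, Bax, Bcl2 and Mcl1 in ATF3 against CEBPG. Some others were lost only with the replicate block described below. Against the control these were Bcl2 and Bcl2l1 in ATF4, and Bcl2l11 and Bcl2l1 in CHOP. In CEBPG against CHOP they were Bax, Bcl2 and Mcl1. All 23 held with RLE scaling, with no low-count filter and in DESeq2, 22 held with library totals and 18 in fits of 2 groups, and none reversed. Leaving out 1 library at a time, members called ranged from 2 to 3 in ATF3, 2 to 5 in ATF4, 3 to 4 in CEBPG, 2 to 3 in CHOP, 4 to 4 in ATF3 against CEBPG, 0 to 2 in ATF3 against CHOP and 4 to 6 in CEBPG against CHOP. With only the 2 groups compared, 2 members passed in ATF3 against CHOP and 3 in CEBPG against CHOP; DESeq2 called 2 in ATF3 against CHOP.

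The replicate numbers do not pair the libraries (12 same-numbered pairs, correlation of deviations −0.05 to 0.03). With a replicate block, 10 of the 23 calls held; those lost included all 4 in ATF4, all 3 in CHOP and the 1 in ATF3 against CHOP. Members passing were 1 in ATF4, 1 in CHOP, 0 in ATF3 against CHOP and 1 in CEBPG against CHOP. In ATF4 and CHOP that member was Pmaip1, not called without the block (−5.34, adjusted p = 0.0394, and −4.59, adjusted p = 0.0105, edgeR). ATF4 replicates 1 and 3 share numbers with CHOP libraries only, so with the block their comparison with the control runs through CHOP. CHOP replicates 4 and 5, which share numbers with controls, had 11 and 0 Pmaip1 reads. The block also uses up part of the 15 residual degrees of freedom. Counts over all genes fell under the block to 1322 of 5251 in ATF4, 3081 of 5608 in CEBPG, 2719 of 5625 in CHOP, 1895 of 3419 in ATF3 against CEBPG, 11 of 380 in ATF3 against CHOP and 517 of 4478 in CEBPG against CHOP. For ATF3 against CHOP, 1226 genes passed in the fit of 2 groups, 676 in DESeq2, 245 without ATF3 replicate 9 and 226 without CHOP replicate 4; in ATF4, 3371 passed without ATF4 replicate 1. The cause was not tested.

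Reversals touched differences that had not passed. RLE scaling gave −0.000155 for Mcl1 in ATF3 and −0.0302 for Bax in CHOP, DESeq2 −0.000184 and −0.0301, and library totals 0.00381 for Bid in ATF4. The block gave −0.0108 for Mcl1 in ATF3, −0.13 for Bak1 in ATF4, 0.0528 for Bbc3, −0.0383 for Bax and 0.0783 for Bak1 in CHOP, and 0.25 for Bid and 0.0322 for Bcl2l1 in ATF3 against CHOP. Without both CEBPG replicates 6 and 8, Bcl2l11 in CEBPG was −0.0546 and Bak1 in ATF3 against CEBPG 0.10. Leaving out 1 library gave ranges across 0 for Bak1 in ATF4 (−6.67 to 1.41) and CHOP (−0.53 to 0.0740), Bax in ATF3 (−0.18 to 0.0910), CHOP (−0.12 to 0.18) and ATF3 against CHOP (−0.16 to 0.0109), Bbc3 in ATF3 (−0.32 to 0.0513) and CHOP (−0.22 to 0.16), Bcl2 in CHOP (−0.16 to 0.0364), Bcl2l1 in ATF3 against CHOP (−0.0591 to 0.0137), Bcl2l11 in CEBPG (−0.0361 to 0.23), Bid in ATF4 (−0.21 to 0.19), Hrk in CEBPG against CHOP (−0.10 to 0.32), Mcl1 in ATF3 (−0.0390 to 0.0823) and Pmaip1 in ATF4 (−1.72 to 0.34). Bak1 had at most 34 reads in any library. With 1 ATF4 replicate left out, that group is 1 library, assumed to vary like the others, so its calls and counts carry no spread of its own.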

Other observations

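In the library with conflicting labels, the other members stood at 18.3 CPM for Bbc3, 17.5 for Bcl2l11, 4.23 for Hrk, 102 for Bax, 0.278 for Bak1 and 16.2 for Bcl2. Its Bcl2l11, Hrk, Bak1 and Bcl2 were below all 4 controls.

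Within groups, after group means were removed, the members did not move as a block over the 20 libraries. The highest correlations of log2 CPM between members were 0.56 for Bbc3 with Bid, 0.51 for Pmaip1 with Bid and 0.50 for Bcl2 with Mcl1, and the lowest were −0.52 for Bcl2l11 with Bax and −0.50 for Pmaip1 with Bcl2l11. These are descriptions over libraries that share a batch within a group and differ in depth. Spread within groups was widest for Pmaip1 (SD 1.36 on the log2 scale) and Bak1 (1.009).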
